A study of Mus musculus with 6 samples.

Results

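The 46 genes described here encode the machinery of Wnt signaling: 19 secreted Wnt ligands, 12 receptors and coreceptors, 4 genes for β-catenin and the complex that destroys it, 4 TCF/LEF transcription factors, and 7 secreted modulators. They were set by name out of 21938 protein-coding genes on the main chromosomes, and Gli3 binding sites (GBS) were assigned to them by position. A GBS was assigned to a gene when its midpoint lay within 50 kb of the gene's transcription start site (TSS), which gave 21 of the 4114 sites in the list. The data were chromatin immunoprecipitation sequencing (ChIP-seq) of Gli3 in the cerebral cortex of wild-type mouse embryos at embryonic day 15 (E15), with 3 libraries made with a Gli3 antibody and 3 libraries of input DNA. The authors joined the replicates into 1 list of positions, without heights, counts or p-values, so no value below has a replicate error and the depth of the libraries is unknown here. Cortex was taken whole, which mixes progenitors, neurons and other cells, and the list holds no expression values against which the labeled tissue could be checked.

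Wnt ligands are lipid-modified proteins that bind Frizzled receptors together with the Lrp5 and Lrp6 coreceptors. Without a ligand, a complex built on Axin and Apc marks β-catenin for degradation. With a ligand, β-catenin accumulates, enters the nucleus and binds TCF/LEF factors on DNA to turn on target genes such as *Axin2*. In the embryonic forebrain the cortical hem, at the medial edge of the cortex, is a source of several Wnt ligands, and in mice without Gli3 the hem does not form properly. Gli3 is the transcription factor that represses targets of Sonic hedgehog when the pathway is off. It recognizes sequences containing the 9-base core GACCACCCA. TCF/LEF factors recognize sequences containing CTTTGAT. Exact matches of these letters on either strand are called the GLI core and the TCF/LEF core below. A match is a description of the sequence and is not evidence that a factor sits there.

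The 21 sites held 3 GLI cores, in 3 sites, and these are the places where the letters that Gli3 itself is known to recognize occur near a member. One lay in an intron of *Wnt7b*, another just upstream of *Wnt2*, and the third in the promoter of a neighbor of *Fzd2*. They are printed 5′ to 3′ on the strand that reads GACCACCCA, from GRCm38 (mm10), with the core in capitals. The *Wnt7b* sequence is chr15:85582187-85582255 on the + strand, the *Wnt2* sequence is chr6:18030973-18031041 on the + strand, and the *Fzd2* sequence is chr11:102556020-102556088 on the − strand.
Wnt7b: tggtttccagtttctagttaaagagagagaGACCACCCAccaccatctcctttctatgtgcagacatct
Wnt2: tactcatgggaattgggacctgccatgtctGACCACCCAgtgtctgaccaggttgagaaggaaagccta
Fzd2: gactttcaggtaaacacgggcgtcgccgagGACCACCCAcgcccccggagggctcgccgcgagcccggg

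The 21 sites also held 12 TCF/LEF cores, in 9 sites, and 3 of the 12 lay in the single site over the start of *Axin2*. The *Axin2* cores are shown because *Axin2* is the gene most widely used as a reporter of Wnt signaling. They lie at chr11:108920417-108920443 (+ strand), chr11:108921222-108921248 (+ strand) and chr11:108922406-108922432 (− strand), the first of them in the 5′ untranslated region and the others in an intron.
Axin2 core at 81 bp: gccggctgcgCTTTGATaaggtcctgg
Axin2 core at 886 bp: ggccggcgcgCTTTGATgtgcggggcg
Axin2 core at 2070 bp: aacttagaggCTTTGATcttcaaactt

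Of the 46 genes, 17 had at least 1 GBS within 50 kb of the TSS (37.0%, 95% Wilson interval 24.5 to 51.4%), against 23.5% of all protein-coding genes. The interval treats genes as independent draws and covers counting error only. A GBS lay within 2 kb of the TSS of 8 members (17.4%, interval 9.09 to 30.7%), against 6.88% of all protein-coding genes, and these were *Wnt2*, *Wnt7a*, *Wnt7b*, *Fzd9*, *Axin2*, *Tcf7l1*, *Dkk3* and *Sfrp1*. There were 2 or more sites at 4 members (8.70%, interval 3.43 to 20.3%), *Wnt7b*, *Fzd8*, *Axin2* and *Sfrp1*. The 4.86% of coding genes lies inside that interval, and among sites at least as wide as the median the shares were 2.17% and 2.28%. With sites within 1 kb of each other joined, 3 members had 2 or more, against 4.62% of coding genes. The map of sites around each TSS shows how unevenly they were spread: 29 members had none within 50 kb, 13 had 1, 3 had 2, and *Wnt7b* had 4.

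**Figure D1:**
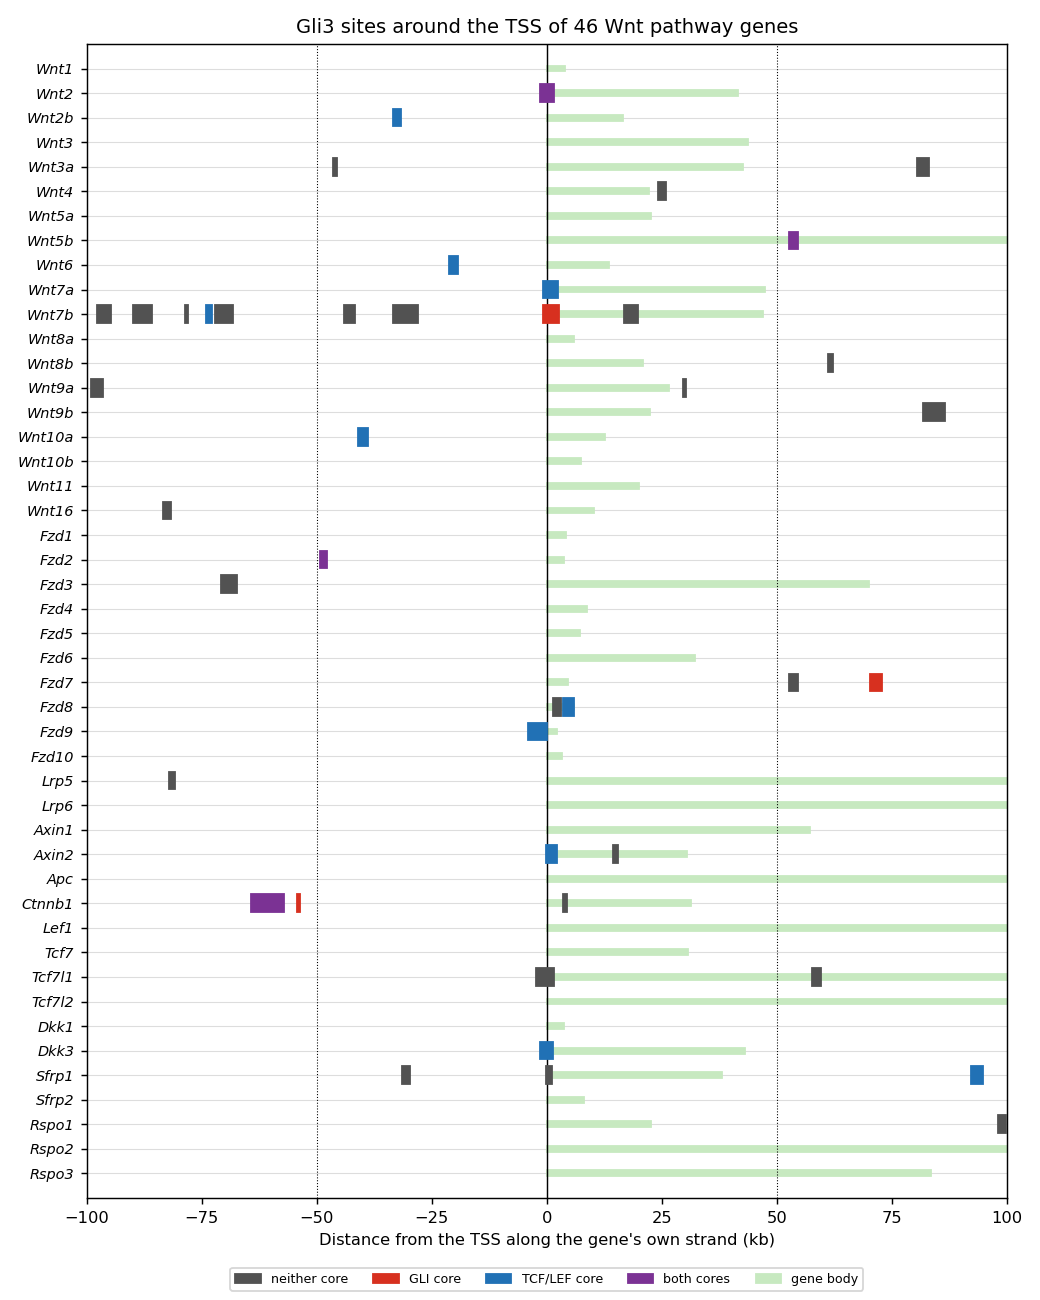
Each line is 1 of the 46 Wnt pathway genes, with the TSS at 0, the gene body in green, and each Gli3 site within 100 kb drawn to scale along the gene's own strand (x axis, kb); the color gives the cores the site holds, and dotted lines mark 50 kb. *Wnt7b* has 9 sites in this window, some of them nearer to another coding TSS, and 8 genes have a site whose midpoint lies within 2 kb of the TSS.

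Most members start in CpG-rich sequence, and a GBS was more frequent near CpG-rich starts in general. A TSS was called CpG-rich when the 500 bp on each side had at least 50% GC and an observed to expected CpG ratio of at least 0.6. This held for 37 of the 46 members (80.4%) and for 44.4% of coding genes. Among CpG-rich genes, 13 of 37 members had a site within 50 kb (35.1%), beside 30.6% of all CpG-rich coding genes. Among the others it was 4 of 9 members, beside 17.8%. One of these 4, *Ctnnb1*, depends on the start used, with 42.8% GC and a ratio of 0.401 around its gene-level TSS. The 250 bases upstream of its RefSeq start, which lie in its site, had 74.8% GC and a ratio of 1.01. For sites within 2 kb the counts were 6 of 37 CpG-rich members (16.2%) beside 12.2%, and 2 of 9 others beside 2.65%. Weighting the coding genes to the members' share of CpG-rich starts gave 28.1% with a site within 50 kb and 10.3% with a site within 2 kb, so both backgrounds came nearer to the members' 37.0% and 17.4% and lay inside the members' intervals. The part of base composition in the counts was not tested further.

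Wnt genes stood in sparse surroundings, with a median of 0 other coding TSSs within 50 kb against 2 for coding genes in general. A member had the nearest coding TSS to a site within 50 kb in 13 cases (28.3%), against 10.8% of coding genes. Such a share depends on how many other coding TSSs stand nearby, and it was not adjusted for that. Seen from the sites, 19 of the 21 lay nearest to the TSS of a member. The exceptions were the site shared by *Wnt6* and *Wnt10a*, whose midpoint was 2.4 kb from the TSS of *Prkag3*, and the site of *Fzd2*, 0.5 kb from the TSS of *Gpatch8*.

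**Figure D2:**
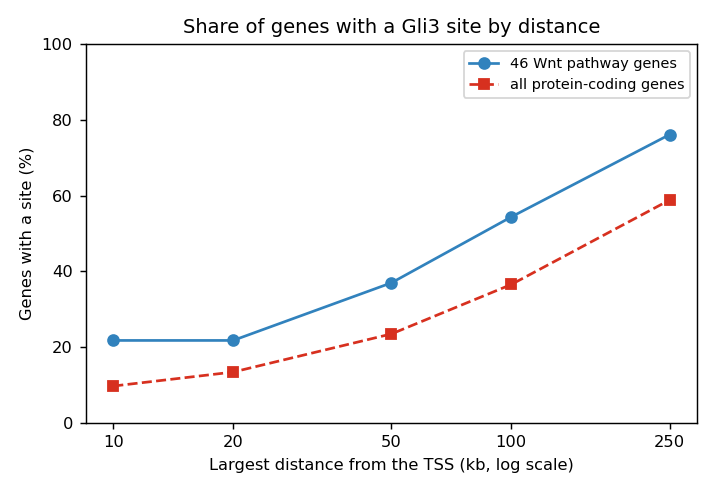
Percent of genes (y axis) with at least 1 Gli3 site whose midpoint lies within a given distance of the TSS (x axis, kb, log scale), for the 46 Wnt pathway genes and all 21938 protein-coding genes. Within 100 kb the shares are 54.3% and 36.5%, and the Wnt line lies above the other at each of the 5 distances. The line of all coding genes is not weighted for CpG-rich starts.

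The members' share was the same within 10 and 20 kb, with 10 genes in each, and larger in each wider window. Within 100 kb, 25 members had a site (54.3%, interval 40.2 to 67.8%) against 36.5% of coding genes. The nearest site was 50 to 100 kb away for 8 further members, 100 to 250 kb for 10, and over 250 kb for 11. The median distance to the nearest site was 83.4 kb over the members and 177 kb over coding genes. The values for coding genes in this paragraph were not weighted for CpG-rich starts.

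Ligands had a site in 9 of 19 cases (47.4%, interval 27.3 to 68.3%), with 10 distinct sites, against 23.5% of coding genes. The interval treats neighbors that share a site, *Wnt3a* with *Wnt9a* and *Wnt6* with *Wnt10a*, as independent. The share of CpG-rich coding genes, 30.6%, lies inside it. At the TSS, 3 of 19 ligands had a site (15.8%, interval 5.52 to 37.6%), against 6.88% of coding genes, which lies inside the interval. These 3 were *Wnt2*, *Wnt7a* and *Wnt7b*. *Wnt7a* and *Wnt7b* are made by neural cells of the embryonic brain and signal to the endothelium to guide growth of its vessels.

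*Wnt7b* had the most sites of any member. Its TSS lay inside a 3470-bp site at chr15:85579739-85583208, whose GLI core, printed above, was 252 bp downstream of the TSS. A 2922-bp site at chr15:85562671-85565592 lay in an intron, 18.3 kb downstream. Upstream stood the widest of all 21 sites, 5401 bp at chr15:85610530-85615930 and 30.8 kb from the TSS, and a 2206-bp site at chr15:85624276-85626481, 42.9 kb from it. Both upstream sites were intergenic and held neither core. Having 4 or more sites within 50 kb was shared with 0.401% of coding genes. The sites did not stop at 50 kb: 5 more followed at -70.2, -73.5, -78.3, -87.9 and -96.3 kb, one over the promoter and the others in introns of the noncoding gene *Lncppara*. That made 9 sites within 100 kb, 7 upstream and 2 inside the gene, a number reached by 0.0866% of coding genes (19 of 21938). Those at -78.3, -87.9 and -96.3 kb lay nearer to the TSS of the coding gene *Ppara*, at 74.2, 64.6 and 56.3 kb from it. From the first to the last the 9 sites spanned 118 kb, of which 26.8 kb (22.8%) was inside a site, with widths of 619 to 5401 bp. Across the 9 there was 1 GLI core and 1 TCF/LEF core, the latter in the site at -73.5 kb. In the list such a run is 9 separate entries, and whether they stem from 1 or several binding events was not tested.

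*Wnt7a* had 1 site, 3251 bp at chr6:91408960-91412210, which covered the TSS and reached into the gene. *Wnt2*, a ligand expressed in mesenchymal tissues among others, had 1 site of 3098 bp at chr6:18029030-18032127, centered 7 bp from the TSS. It held both cores, the GLI core at position -422 relative to the TSS and a TCF/LEF core 1425 bp downstream in the gene. The *Wnt7a* site held a TCF/LEF core 2180 bp downstream of the TSS and no GLI core. The TCF/LEF matches of both genes lie in transcribed sequence, at chr6:18029147-18029173 (+ strand) for *Wnt2* and chr6:91409170-91409196 (− strand) for *Wnt7a*.
Wnt2 TCF/LEF: ataaatcagtCTTTGATcctgtgtcag
Wnt7a TCF/LEF: tgaaggaaggCTTTGATggaaaagggg

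The other 6 ligands with a site had it away from the TSS. *Wnt2b*, a ligand of the cortical hem, had a 1613-bp site at chr3:104993745-104995357, 32.6 kb upstream, over the start of the antisense gene *Gm40117* and with 1 TCF/LEF core. *Wnt4*, which acts in kidney and gonad development, had a 1664-bp intergenic site at chr4:137301643-137303306, 25 kb downstream of the TSS and past the end of the gene. *Wnt3a*, the hem ligand needed for the hippocampus, and *Wnt9a*, known from joint formation, are neighbors and shared 1 site, so they are not independent. This site, chr11:59336438-59337172, was the narrowest of the 21 at 735 bp, lay 46.1 kb upstream of *Wnt3a* and 29.9 kb downstream of *Wnt9a*, and was near the start of the microRNA gene *Gm24756*. *Wnt6* and *Wnt10a*, neighbors that act in ectodermal organs, also shared 1 site, 2132 bp at chr1:74750555-74752686. It lay 20.3 kb upstream of *Wnt6* and 39.9 kb upstream of *Wnt10a*, in intergenic sequence, with 1 TCF/LEF core.

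The 10 ligands without a site within 50 kb included some of the best known. The nearest site was 53.7 kb from *Wnt5b*, 61.6 kb from *Wnt8b*, 82.6 kb from *Wnt16*, 84.2 kb from *Wnt9b*, 108.5 kb from *Wnt3*, 164.2 kb from *Wnt1*, 175.9 kb from *Wnt10b*, 217.5 kb from *Wnt8a*, 454.9 kb from *Wnt11* and 881.2 kb from *Wnt5a*. *Wnt8b*, like *Wnt3a* and *Wnt2b*, is a marker of the hem. For *Wnt5b* and *Wnt8b* the choice of TSS mattered: an alternative transcript began 23.5 kb and 44.8 kb from the site. Both sites lay nearer to another coding gene. The *Wnt5b* site was 11 kb from the TSS of *Fbxl14*, and the *Wnt8b* site was a promoter site 0.3 kb from that of *Ndufb8*.

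**Figure D3:**
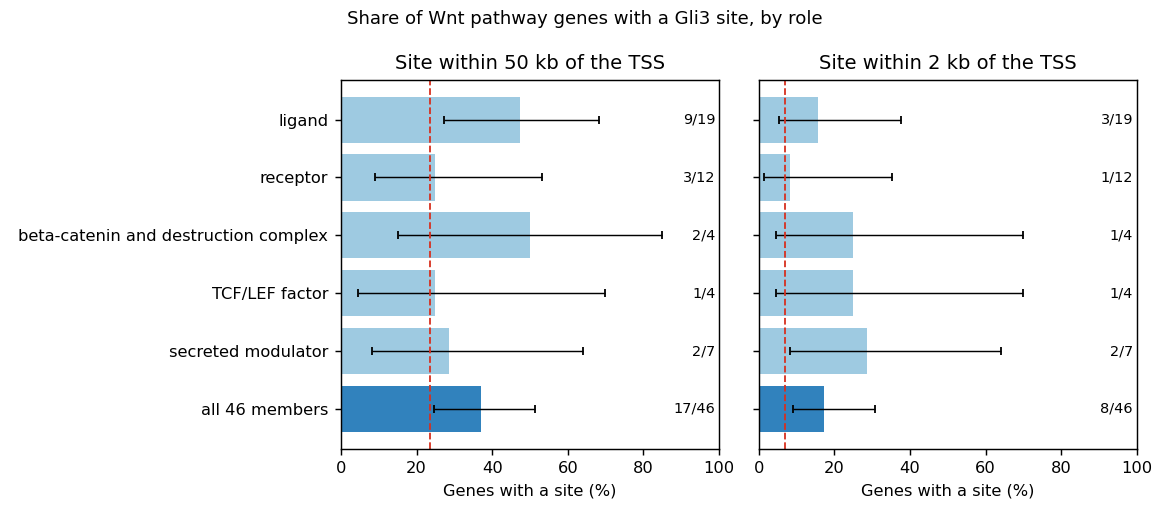
Percent of genes in each role (x axis) with a Gli3 site within 50 kb (left) and within 2 kb (right) of the TSS; bars are shares, lines are 95% Wilson intervals, the dashed red line is the share of all protein-coding genes, and the counts stand at the right of each bar. The interval of each role overlaps the others, and the interval of all 46 genes lies above the dashed line in both panels. The dashed line is not weighted for CpG-rich starts. Weighted to the members' share of such starts, the coding gene shares were 28.1% and 10.3%, inside the intervals of all 46 genes.

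Receptors had a site in 3 of 12 cases (25%, interval 8.89 to 53.2%), close to the 23.5% of coding genes. *Fzd9*, a Frizzled receptor, had a site over the TSS, 4049 bp at chr5:135251173-135255221, mostly upstream of the gene and with 2 TCF/LEF cores. The midpoint of this site lay at -1967 bp relative to the TSS, only just inside the 2 kb limit. *Fzd2* was reached only from 48.5 kb upstream, by the 1447-bp site at chr11:102555189-102556635 in the promoter of *Gpatch8*. This site held both cores, yet its place is that of *Gpatch8*, and it just entered the 50-kb window of *Fzd2*.

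The cores of the *Fzd9* site are shown because, beside *Axin2*, it was the one site with more than 1 TCF/LEF core. They lie upstream of the gene at chr5:135252522-135252548 (− strand) and chr5:135254769-135254795 (+ strand), at positions -1305 and -3552 relative to the TSS.
Fzd9 near: gtgagaagtcCTTTGATacataaggaa
Fzd9 far: tagcatgcacCTTTGATtccagcagag

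*Fzd8*, a receptor expressed in forebrain progenitors, had 2 sites inside its only exon, of 1660 bp at chr18:9213537-9215196 and 2405 bp at chr18:9215697-9218101, 2.2 and 4.7 kb downstream of the TSS. These stood less than 1 kb apart and make 1 site where sites within 1 kb are joined.

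The other 9 receptors and coreceptors had none. The nearest site was 53.6 kb from *Fzd7*, 69.1 kb from *Fzd3*, 81.5 kb from *Lrp5*, 205.9 kb from *Fzd10*, 261.9 kb from *Fzd1*, 359.1 kb from *Lrp6*, 443.3 kb from *Fzd6*, 897.8 kb from *Fzd4* and 1000.8 kb from *Fzd5*. Both coreceptors, *Lrp5* and *Lrp6*, are in this group.

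Of the 4 genes for β-catenin and its destruction complex, *Axin2* and *Ctnnb1* had a site. *Axin2* encodes a scaffold of the complex and is itself turned on by β-catenin, which closes a negative feedback loop. Its TSS lay in a 2367-bp site at chr11:108920164-108922530 with the 3 TCF/LEF cores printed above, at 81, 886 and 2070 bp downstream of the TSS. The site had 67.2% GC, the highest of the 21. A second site, 1108 bp at chr11:108934748-108935855, lay in an intron 15 kb downstream and held neither core. Neither *Axin2* site held a GLI core.

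*Ctnnb1* encodes β-catenin. Its 1 site within 50 kb was narrow, 938 bp at chr9:120932691-120933628, and lay 3.9 kb downstream of the gene-level TSS. The gene has 15 annotated starts, and the site was 0.2 kb from another of them, so it is a promoter site by that start. It held neither core. The nearest site was 105.4 kb from *Axin1*, the constitutive scaffold, and 538.9 kb from *Apc*, the tumor suppressor of the complex.

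The 250 bases upstream of the start of *Axin2* and of the start of *Ctnnb1* inside the site are shown as promoters on which a GBS lay, with 185 and 250 of the bases in the site. Both are taken from RefSeq promoters on GRCm38.p6 (+ strand), chr11:108920099-108920348 and chr9:120933150-120933399, with each CpG in capitals.
Axin2 upstream: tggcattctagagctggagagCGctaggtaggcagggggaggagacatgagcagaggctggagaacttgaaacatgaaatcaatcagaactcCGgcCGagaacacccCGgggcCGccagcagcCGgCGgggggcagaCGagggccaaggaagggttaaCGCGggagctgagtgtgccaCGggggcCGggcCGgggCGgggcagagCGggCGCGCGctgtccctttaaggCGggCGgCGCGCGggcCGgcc
Ctnnb1 upstream: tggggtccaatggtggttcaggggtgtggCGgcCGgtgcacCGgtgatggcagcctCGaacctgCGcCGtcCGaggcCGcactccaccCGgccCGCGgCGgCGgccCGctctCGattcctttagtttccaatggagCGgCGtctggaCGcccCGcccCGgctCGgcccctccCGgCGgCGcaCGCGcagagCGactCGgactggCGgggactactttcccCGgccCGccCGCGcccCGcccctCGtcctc
These sequences held 24 and 35 CpGs. Their 300-base RefSeq windows, which run 50 bases past the start, held no GLI core and no TCF/LEF core, and held the 8-base GC box GGGCGGGG 1 time and 2 times. Among 32851 RefSeq promoter windows of that length, the GLI core was in 0.253%, the TCF/LEF core in 3.73% and the GC box in 17.6%, each counted on both strands. RefSeq promoters were matched by symbol for 30 of the 46 members, and the windows of 6 overlapped a site. The other 4, those of *Wnt2*, *Wnt7a*, *Fzd9* and *Tcf7l1*, include annotated untranslated sequence upstream of the RefSeq start and are not printed.

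Of the 4 TCF/LEF factors, *Tcf7l1*, which acts mainly as a repressor of Wnt targets, had a site. It was 3929 bp wide, at chr6:72787804-72791732, covered the TSS and held neither core. The nearest site was 149.3 kb from *Tcf7*, 165.1 kb from *Lef1* and 185.1 kb from *Tcf7l2*, although a transcript of *Tcf7l2* started 42.5 kb from a site. *Lef1* and *Tcf7* encode factors that mainly activate with β-catenin.

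Of the 7 secreted modulators, *Dkk3* and *Sfrp1* had a site, in both cases over the TSS. *Dkk3* is a divergent member of the Dickkopf family of Wnt antagonists. Its site was 2888 bp at chr7:112157678-112160565, centered 0.1 kb from the TSS, with a TCF/LEF core 616 bp downstream at chr7:112158428-112158454 (− strand).
Dkk3 TCF/LEF: gtcctgcagtCTTTGATagctttccgg
*Sfrp1* encodes a secreted Frizzled-like protein that binds Wnt ligands away from their receptors. It had a 1219-bp site over the TSS at chr8:23411249-23412467 and a 1582-bp intergenic site at chr8:23380147-23381728, 30.6 kb upstream, both without either core. The pair spanned the extremes of the CpG ratio among the 21 sites, with 0.948 at the TSS and 0.0519 upstream. The nearest site was 98.9 kb from *Rspo1*, 222.6 kb from *Sfrp2*, 519.5 kb from *Dkk1*, 932.7 kb from *Rspo3* and 1357.3 kb from *Rspo2*. R-spondins amplify Wnt signaling, and Dkk1 blocks the Lrp coreceptors.

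**Figure D4:**
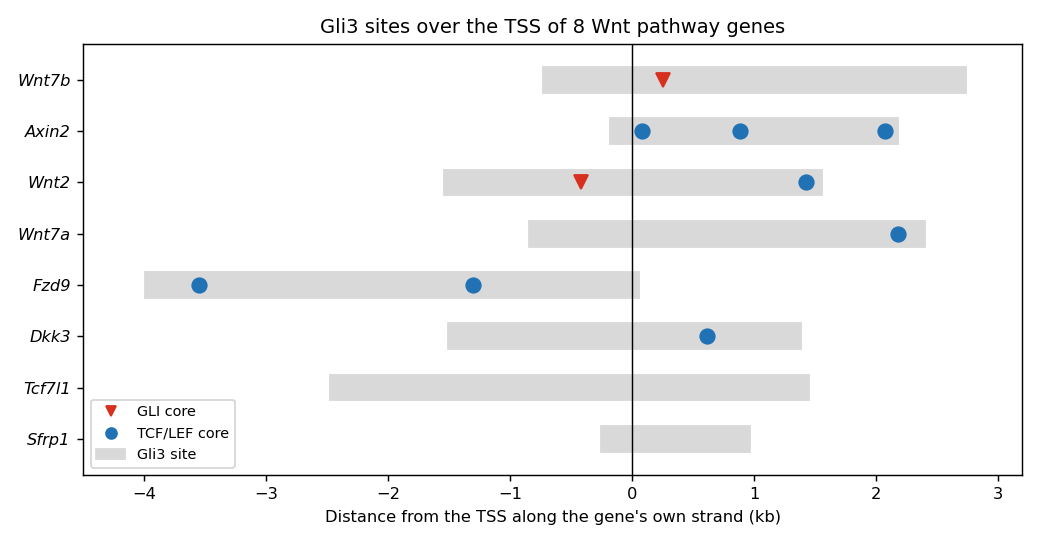
The 8 Gli3 sites over the TSS of a Wnt pathway gene (gray bars, to scale), with position relative to the TSS along the gene's own strand on the x axis (kb) and exact matches of the GLI core (red triangles) and TCF/LEF core (blue circles). *Wnt7b* and *Wnt2* hold a GLI core, *Axin2* holds 3 TCF/LEF cores, and *Tcf7l1* and *Sfrp1* hold neither.

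The plot of the sites at the TSS sets the 8 sites side by side. All 8 covered the TSS itself, and 6 of them held at least 1 core. Over all 21 sites, 12 lay at a promoter, meaning that some annotated transcript started within 2 kb of the midpoint (57.1%, interval 36.5 to 75.5%), against 45.5% of all listed sites. Of the 21, 8 were within 2 kb of that member's TSS, 11 within 10 kb and 13 within 20 kb, and 9 of the 21 lay upstream. Of the members' sites, 52.4% lay within 10 kb of the member's TSS. Among all sites within 50 kb of a coding TSS, 63.5% lay within 10 kb of the nearest one. These shares are not alike, as the second counts any coding gene. By that measure the site of *Wnt6* and *Wnt10a* was 2.4 kb from *Prkag3*. The *Fzd2* site was 0.5 kb from *Gpatch8*, so both also count as within 10 kb.

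The share of the members' sites with the exact 9-base GLI core was near that of the list, and the share with a TCF/LEF core was larger, although its interval reached the share of the list. A GLI core was in 3 of 21 sites (14.3%, interval 4.98 to 34.6%), against 12.2% of listed sites. Its first 8 bases alone, GACCACCC, were in 7 of 21 (33.3%), against 20.4%. A TCF/LEF core was in 9 of 21 (42.9%, interval 24.5 to 63.5%), against 25.7%. Per 10 kb of sequence the members' sites held 0.599 GLI cores against 0.633 over the list, and 2.40 TCF/LEF cores against 1.38. Both cores stood together in the sites of *Wnt2* and *Fzd2* (9.52%, against 3.71% of listed sites), and 11 of 21 sites held neither.

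The GLI cores of the members were all in promoter sites, 3 of 12 (25%), where 9.30% of all promoter sites had one. None was in the 9 sites outside promoters, where 14.7% of all such sites had one. The TCF/LEF core was in 7 of 12 promoter sites (58.3%) and 2 of 9 others, against 25.8% and 25.7% of listed sites. These subsets are small, and 3 of the 12 TCF/LEF cores come from *Axin2* alone.

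The other TCF/LEF matches outside the genes already shown lie in the sites of *Wnt2b*, of *Wnt6* and *Wnt10a*, and of *Fzd2*, at chr3:104994652-104994678 (− strand), chr1:74751255-74751281 (− strand) and chr11:102555546-102555572 (+ strand). They complete the printed set, apart from 1 match at *Fzd8*.
Wnt2b TCF/LEF: caaagcttggCTTTGATcttgcttgcc
Wnt6 and Wnt10a TCF/LEF: tctcacgggaCTTTGATaataataata
Fzd2 TCF/LEF: aaaaaggcgtCTTTGATaagaaagggc

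Width is the only size the list gives for a site. The median was 2206 bp over the members' sites, with a range of 735 to 5401 bp, and 1989 bp over all 4114 sites, and 12 of the 21 were wider than that. The *Wnt7b* site 30.8 kb upstream (wider than 97.0% of listed sites) and the *Fzd9* site (90.1%) passed the 90th percentile of 4022 bp. At the narrow end stood the *Wnt3a* and *Wnt9a* site (6.0%) and the *Ctnnb1* site (11.3%). The members' sites had a median GC content of 56.5% against 51.4% over the list and a median CpG ratio of 0.420 against 0.305. A wide site holds more sequence in which a match can occur.

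**Figure D5:**
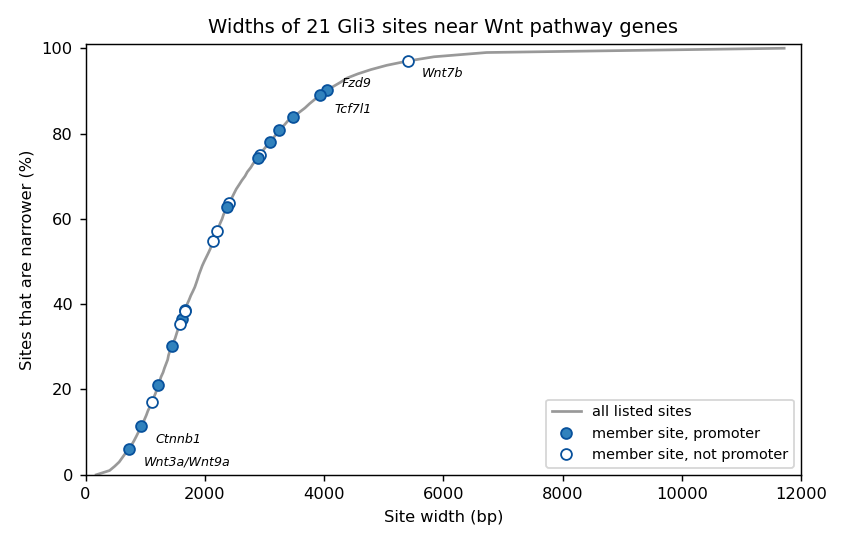
Width of each site (x axis, bp) against the percent of listed sites that are narrower (y axis), with the gray line for all 4114 sites and circles for the 21 sites near Wnt pathway genes, filled where the site lies at a promoter. The circles spread from the 6.0% of the *Wnt3a* and *Wnt9a* site to the 97.0% of a *Wnt7b* site.

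A further 45 genes of the pathway outside the 46 were read in the same way. A site within 50 kb was found for 14 of them (31.1%, interval 19.5 to 45.7%), against 23.5% of coding genes, which lies inside the interval. A site lay no more than 2 kb from the TSS of 10 (22.2%, interval 12.5 to 36.3%, against 6.88%). In 6 cases there were 2 or more sites (13.3%, interval 6.26 to 26.2%, against 4.86%), counting sites that lay nearer to another coding TSS. These backgrounds were not weighted for CpG-rich starts, and 12.2% of CpG-rich coding genes had a site within 2 kb. The counts by role that follow are of few genes each, beside the same 23.5%. Nuclear proteins of the pathway had sites in 5 of 6 cases, *Bcl9*, *Bcl9l*, *Pygo2*, *Ctnnbip1* and *Sp5*. Cytoplasmic proteins had them in 4 of 10, *Dvl2*, *Dvl3*, *Gsk3a* and *Gsk3b*, and planar cell polarity genes in 3 of 7, *Vangl2*, *Celsr1* and *Prickle1*. Both sites of *Gsk3a* lay nearer to the TSS of another coding gene, *Erf* for one and *Cic* for the other. The far site of *Vangl2* lay 2.9 kb from the TSS of *Nhlh1*, and that of *Sp5* 0.7 kb from the TSS of *Erich2*. Of the 6 genes with 2 or more sites, only *Celsr1* had 2 or more for which its own TSS was the nearest coding TSS. By that measure 1.33% of coding genes had 2 or more. Among other secreted modulators 2 of 9 had one, *Sfrp5* and *Draxin*, while 0 of 3 genes for ligand processing and 0 of 10 other membrane proteins did. *Celsr1*, a planar polarity cadherin, had 4 sites, at 0.3 kb and 36.4 kb upstream of the TSS and at 39.7 and 42.4 kb inside the gene. The site at 36.4 kb lay in an intron of *Gramd4*, whose TSS was nearer, at 12.5 kb. *Draxin*, an axon guidance protein that antagonizes Wnt signaling, had 4 sites inside the gene at 0.3, 2.2, 8.1 and 9.4 kb, each with the TSS of another coding gene nearer. The single GLI core in this group was in a 4819-bp site 19.2 kb from *Dvl2*, a transducer downstream of Frizzled, and that site also lay nearer to another gene.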

How the data were processed

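Gli3 ChIP-seq was made from dissected E15 wild-type mouse cortices, with 3 ChIP and 3 input libraries. The deposited list, the only file used, holds 4 columns (chromosome, start, end and name of each site) and no count, height, score or p-value. Per the labels and the paper, the authors sheared fixed chromatin, sequenced paired ends, used 85 bases of each, filtered repeats and deposited the optimal set from testing the replicates for irreproducible discovery. The submitters' processing notes name Bowtie2, SAMtools, MACS2 and mm10, and thresholds are not given in the sources used here. The number and width of sites depend on those settings. The total number of sites in the paper's text differs from that of the list, and all shares here are over the list.

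Starts were converted to 1-based coordinates. Genes and gene-level TSSs came from GENCODE M21 and sequence from GRCm38, and the 15 listed sites on unplaced scaffolds were left out of motif counts. Sites were assigned by midpoint, and a site may be assigned to several genes. All 46 members are named, in full for those with 2 or more sites, a site at the TSS or a GLI core. Other pathway genes with a site are named, with values for 3 or more sites or a GLI core, and other genes only where nearer to a site than the member. The members and lists were chosen with earlier results of these data known. Counts are set beside those over all protein-coding genes or all sites, with Wilson 95% intervals for counting error, and no test was run. Scripts were tested on simulated data. Alternatives changed the window, the TSS, the sites and the motif. The tools were matplotlib 3.10.9, pysam 0.24.0, scipy 1.17.1, numpy 2.4.6 and Python 3.11.15.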

Additional observations from a re-analysis of the deposited data

How the results depend on the processing

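No paired analysis was possible because the replicates were joined in 1 list, and for the same reason no replicate could be left out. Of 63 alternatives over 9 results, 36 left the value near that reported (for a count, within 1.5 times, and for a share, within its interval), and 27 moved it. The number of members with a site was 10 within 10 kb, 10 within 20 kb and 35 within 250 kb (9.70%, 13.4% and 58.8% of coding genes), 7 with sites outside promoters (7.51%) and 10 with sites at least as wide as the median (13.9%). Distinct sites numbered 11, 13, 40 and 67 within 10, 20, 100 and 250 kb, 9 outside promoters and 12 among wide sites. Members with 2 or more sites numbered 1 within 10 kb, 9 within 100 kb, 24 within 250 kb and 2 outside promoters (0.666%, 12.6%, 34.5% and 1.19% of coding genes). Among wide sites it was 1 member (2.17%), no larger than the 2.28% of coding genes. Other Wnt genes with a site numbered 22 within 100 kb, 35 within 250 kb and 5 outside promoters. With only the 2 kb upstream of the TSS counted, 3 members had a site at the TSS (2.60% of coding genes) and 33.3% of the members' sites were at a promoter (29.6% of listed sites). The share with a GLI core was 4.76% in the central 500 bp (4.83% of listed sites), 0% outside promoters and 61.9% with 1 mismatch (64.7%), and with the 8-base match GACCACCC it was 33.3% (7 of 21, against 20.4%), inside the interval of the reported share. The share with a TCF/LEF core was 9.52% in the central 500 bp (6.20%), 22.2% outside promoters and 19.0% with the 8-base match CTTTGATC (7.12%). Joining sites within 1 kb of each other gave 20 sites. The member share was above the coding gene share, not weighted for CpG-rich starts, at each of the 5 windows. The list gives no depth or height, so weak sites cannot be told from strong ones, absence from the list is not absence of binding, and neither the target gene of a site nor its effect on expression was measured.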

Other observations

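Between 50 and 100 kb from a member, 6 more GLI cores were found in 4 sites, chosen for mention after their values were seen. In all, 7 of the 40 sites within 100 kb held a GLI core (17.5%, against 12.2% of listed sites). *Wnt5b*, a ligand of the β-catenin-independent branch, had one in a 1913-bp site 53.7 kb downstream of its TSS. That site lay in an intron of *Wnt5b* but nearer to the TSS of *Fbxl14*, at 11 kb. *Fzd7*, a receptor of stem and progenitor cells, had one in a 2629-bp site 71.6 kb downstream of its TSS, within another gene.

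The other 4 cores lay upstream of *Ctnnb1*, in sites nearer to it than to any other coding TSS. A 7248-bp site at chr9:120864843-120872090, wider than 99.3% of listed sites, was centered at -60.8 kb, by the start of the long noncoding gene *Gm34425*, and held 3 GLI cores. A 651-bp site at chr9:120874931-120875581, centered at -54 kb, held 1. The 3 cores of the wide site lie at chr9:120867748-120867816 (− strand), chr9:120868044-120868112 (+ strand) and chr9:120870977-120871045 (+ strand), and that of the narrow site at chr9:120875321-120875389 (+ strand). They are printed because no other member had more than 1 GLI core within 100 kb.
Ctnnb1 wide site A: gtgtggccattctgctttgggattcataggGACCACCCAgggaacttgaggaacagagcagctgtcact
Ctnnb1 wide site B: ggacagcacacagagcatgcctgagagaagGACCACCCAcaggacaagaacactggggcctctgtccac
Ctnnb1 wide site C: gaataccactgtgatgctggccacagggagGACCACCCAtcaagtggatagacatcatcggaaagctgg
Ctnnb1 narrow site: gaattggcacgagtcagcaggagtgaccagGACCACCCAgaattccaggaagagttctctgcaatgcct
Whether these sites act on *Ctnnb1* was not tested, and a 7248-bp site has more room for a match than one of median width.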
